A study of Mus musculus with 18 samples.

Results

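The genes described here encode core proteins of the spliceosome and RNA-binding splicing factors. They were chosen by name as the genes of 6 families, *Snrp*, *Sf3a*, *Sf3b*, *Srsf*, *Hnrnp* and *Prpf*, with a probe clearly above background (Agilent's own flag) on 5 or more of 6 arrays in any group. Of 65 gene names of these families on the array, 64 qualified, among 21542 gene names that passed the same filter. The exception was *Srsf12*, for which both probes were well above background on 0 arrays, and each of the 64 was above background on all 18. Each gene is represented by its brightest probe. Ileum cells of C57BL6/J mice were measured on 18 one-colour arrays, 6 in each of 3 groups. The study treats each array as 1 animal. The iPGC1afl/fl CHOW mice carried the floxed Pgc1α allele without Cre and ate a regular diet. The iPGC1afl/fl HFD mice had the same genotype and ate a diet with 42% of kcal as fat, enriched with saturated fats, and 0.2% cholesterol. In every group the diet began when the mice were 8 weeks old and lasted 8 weeks. The iPGC1a-/- HFD mice ate that diet too and also carried Vil1-Cre, which is active in intestinal epithelium and removes part of the Pgc1α gene there. All mice were fasted and killed at zeitgeber time 3, and the cells were released from the ileum in a chelating buffer and lysed together, so each array reads a mixture of cell types. iPGC1a-/- mice on CHOW were not analysed here.

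The spliceosome removes introns from nuclear transcripts. Its small nuclear ribonucleoproteins (snRNPs) each hold a short RNA, bound in most of them by a ring of Sm proteins. Of the 12 *Snrp* genes here, 8 encode Sm proteins and the others U1 or U2 proteins. U1 recognises the 5′ splice site and U2 with its SF3A and SF3B subcomplexes the branch point. The U4/U6.U5 tri-snRNP, which includes several *Prpf* products, brings in the catalytic parts. SR proteins (*Srsf*) and hnRNP proteins (*Hnrnp*) bind the transcript and shift splice site choice, and the epithelium of the small intestine, renewed without pause from dividing crypt cells, expresses all of these broadly.

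The share of spots flagged as well above background ran from 56.3% to 62.3% per array, and 0 spots were saturated. Levels are given as normalized log2 signal, in which a difference of 1 is a doubling of brightness, and levels of different probes are not compared. The targeted gene did not follow its label. The brighter *Ppargc1a* probe had a median of 11.17 and a highest value of 11.25 in iPGC1afl/fl CHOW, a lowest, median and highest value of 11.26, 11.40 and 11.45 in iPGC1afl/fl HFD and of 11.36, 11.63 and 12.01 in the arrays labelled iPGC1a-/- HFD. The log2 difference of the last group from iPGC1afl/fl HFD was 0.30 (SE 0.16, limma adjusted p = 0.572). Whether the *Ppargc1a* probes lie in the deleted exons was not determined here, so they may check nothing, and the genotype contrast below refers to the labels. The paper itself reports the intestinal deletion from RT-qPCR. All 15 enterocyte markers were above background, with median array means of 15.51, 15.81 and 15.82 in iPGC1afl/fl CHOW, iPGC1afl/fl HFD and iPGC1a-/- HFD.

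Selected probes of these genes are printed first, as the array design gives them (mm9, 60 bases each). Those of *Snrpn*, *Snrpb* and *Snrpd2* are not the brightest of their gene and enter no count of genes below. *Snrpn* and *Snrpb* encode near-identical Sm proteins, and 1 probe of each reads the same stretch of the paralogous messages. The *Snrpn* probe lies on the minus strand at chr7:67132330-67132389 and the *Snrpb* probe on the minus strand at chr2:130002789-130002848. Capitals mark bases that differ between both probes where they align.
Snrpn: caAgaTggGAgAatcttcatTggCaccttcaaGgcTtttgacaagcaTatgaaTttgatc
Snrpb: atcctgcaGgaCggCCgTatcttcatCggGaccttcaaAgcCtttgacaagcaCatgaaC
They share 43 of 54 aligned bases (79.6%). Despite this likeness the *Snrpn* probe was higher and the *Snrpb* probe lower on HFD, as given with the Sm genes, and how far each probe binds the other message was not tested. Probes of *Snrpd2*, at chr7:19737898-19737957 on the plus strand, and *Srsf3*, at chr17:29173333-29173392 on the plus strand, are shown because they give a second reading of an Sm gene and read an SR gene that fell. The *Hnrnpr* probe, at chr4:135892335-135895122 on the plus strand, is shown because it had the largest fall of the 64 genes between iPGC1afl/fl CHOW and iPGC1a-/- HFD. The *Hnrnpr* probe covers 2788 bp of genome, so it bridges an intron and reads spliced message.
Snrpd2: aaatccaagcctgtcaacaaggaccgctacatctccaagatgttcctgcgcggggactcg
Srsf3: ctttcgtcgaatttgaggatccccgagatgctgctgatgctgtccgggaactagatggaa
Hnrnpr: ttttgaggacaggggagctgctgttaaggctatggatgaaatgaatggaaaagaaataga

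To ask whether the diet alone altered splicing genes, iPGC1afl/fl HFD was compared with iPGC1afl/fl CHOW. Of the 64 genes, 22 fell, 1 (*Snrpn*) rose and 41 did not pass an adjusted p of 0.05 in limma. Across all 21542 gene names, 24.6% passed, 14.2% as lower and 10.4% as higher, whereas 34.4% of the splicing genes were lower and 1.56% higher. The falls were small, between 0.25 and 0.50 on the log2 scale, and *Snrpn* was the 1 gene past a fold change of 1.5, which 8.43% of all gene names passed. The mean was lower on HFD for 53 of the 64 genes, against 10668 of 21542, and the median log2 fold change was -0.18, against 0.00 over all gene names. In *Snrp* 8 of 12 genes fell and 1 rose, in *Hnrnp* 7 of 20 fell, in *Prpf* 3 of 13, in *Srsf* 2 of 10, in *Sf3b* 1 of 6 and in *Sf3a* 1 of 3, with family medians of -0.35, -0.19, -0.09, -0.12, -0.14 and -0.21. The genes nearest to the threshold were *Hnrnpr* (adjusted p = 0.038, log2 fold change -0.46) on the inner side and *Hnrnpul2* (adjusted p = 0.054, log2 fold change 0.26) on the outer.

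**Figure D1:**
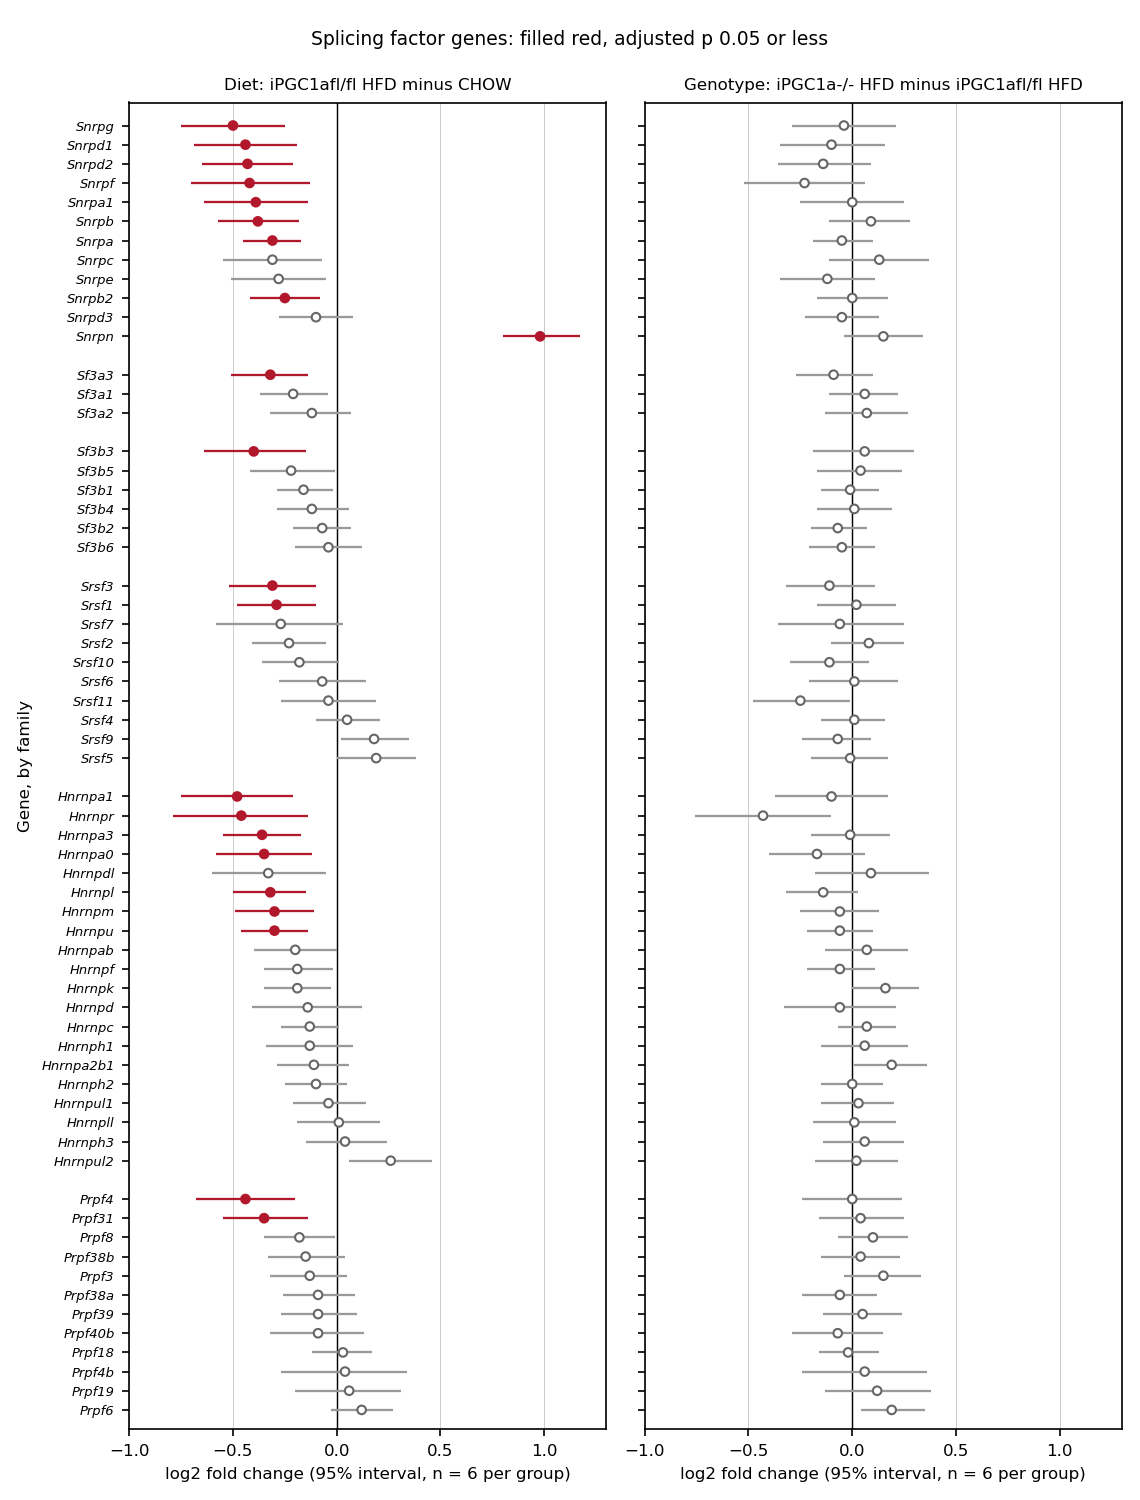
Log2 fold change of 63 of the 64 splicing factor genes for diet (left) and for genotype on HFD (right), by family, with 95% intervals from limma (6 arrays per group); filled red points passed an adjusted p of 0.05. On the left the red points lie below 0 except Snrpn, which lies alone at 0.98, and on the right no point is red.

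The number of falling genes depended on how the arrays were scaled. The main setting brought each array to a distribution weighted between the mean of all arrays and that of its group. When each array was instead scaled to its 75th percentile, 6 genes fell and 4 rose from the background-subtracted signal. From the median signal, 7 fell and 4 rose. The falls were 9.38% and 10.9% of the splicing genes, near the 11.1% and 9.42% of all gene names called lower there. The median of the 64 genes was -0.09 and -0.10, against 0.04 and 0.07 over all tested probes. With normexp background correction, quantile normalization or the authors' own log2 table, 24, 22 and 22 genes fell. Single arrays mattered too. Without iPGC1afl/fl CHOW replicate 4 there were 13 falling genes (20.3%), against 10.9% of all gene names lower. Without iPGC1afl/fl HFD replicate 2 or replicate 3 there were 12 each (18.8%), against 10.7% and 10.2% of all gene names lower. *Snrpn*, *Snrpg*, *Snrpd2*, *Prpf4* and *Hnrnpa3* passed under each of 12 other ways of processing and with each of the 18 arrays left out, and no other of the 23 genes did.

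**Figure D2:**
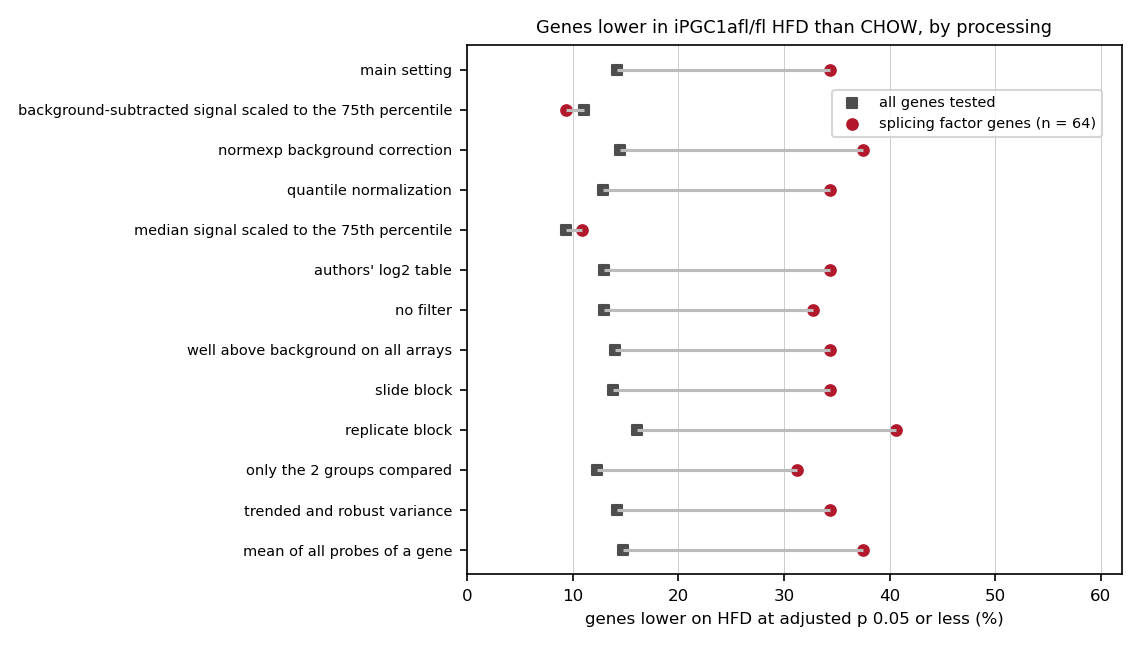
Percentage of genes called lower in iPGC1afl/fl HFD than in iPGC1afl/fl CHOW (horizontal axis) under the main setting and 12 alternatives (rows); squares are all gene names tested and circles the 64 splicing factor genes. The circles lie between 31.2% and 40.6% except under the 75th-percentile scalings, where they lie at 9.38% and 10.9%, beside the squares.

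Among the Sm genes, *Snrpn* stood apart. It encodes SmN, an imprinted counterpart of SmB known mainly from neurons. Its brightest probe read 9.58, 9.70 and 9.88 (lowest, median, highest) in iPGC1afl/fl CHOW, 10.61, 10.68 and 10.91 in iPGC1afl/fl HFD and 10.59, 10.84 and 11.19 in iPGC1a-/- HFD. Every HFD array of either genotype lay above every CHOW array. The log2 fold change with diet was 0.98 (SE 0.09, adjusted p = 2.97e-07 in limma), a level 97.7% higher, with the smallest p of 0.00216 that an exact two-sided permutation test of 6 against 6 arrays can give. Within each of the 3 slides the difference was at least 0.96. The other *Snrpn* probes rose as well: the printed probe went from 7.50 ± 0.11 (mean ± SD, n = 6) to 8.41 ± 0.20 (log2 fold change 0.91, adjusted p = 4.39e-05) and the last from 6.93 ± 0.19 to 7.56 ± 0.12 (0.63, adjusted p = 0.000123). *Snrpb*, which encodes SmB, moved the opposite way on all of its probes. Its brightest probe read 12.76, 13.03 and 13.35 in CHOW and 12.50, 12.63 and 12.84 in iPGC1afl/fl HFD and 12.54, 12.75 and 12.91 in iPGC1a-/- HFD, with partly overlapping groups (log2 fold change -0.38, SE 0.09, adjusted p = 0.00577), and the printed *Snrpb* probe went from 9.63 ± 0.22 to 9.30 ± 0.14 (-0.33, adjusted p = 0.035).

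Of the other Sm genes, *Snrpg*, *Snrpd1*, *Snrpd2* and *Snrpf* fell, while *Snrpe* (log2 fold change -0.28, adjusted p = 0.0689) and *Snrpd3* (-0.10, adjusted p = 0.446) did not pass on their brightest probes. The second *Snrpe* probe passed (-0.31, adjusted p = 0.0121) and that of *Snrpd3* did not (-0.34, adjusted p = 0.056). Both genes passed when all probes of a gene were averaged. *Snrpg*, for SmG, read 12.98, 13.24 and 13.71 in CHOW, 12.46, 12.79 and 13.04 in iPGC1afl/fl HFD and 12.47, 12.78 and 12.84 in iPGC1a-/- HFD. Only the 2 highest iPGC1afl/fl HFD arrays reached above the lowest CHOW array. *Snrpg* fell by 0.50 on the log2 scale (SE 0.12, adjusted p = 0.00511; exact permutation p = 0.00649), so the level fell by 29.2%. *Snrpd2*, for SmD2, read 13.05, 13.20 and 13.65 in CHOW, 12.60, 12.87 and 13.02 in iPGC1afl/fl HFD and 12.46, 12.69 and 12.84 in iPGC1a-/- HFD. Neither HFD group overlapped CHOW (log2 fold change with diet -0.43, SE 0.11, adjusted p = 0.00569), and the printed second probe of *Snrpd2* gave -0.46 (adjusted p = 0.00207). *Snrpd1*, for SmD1, was at 11.79, 11.94 and 12.53 in CHOW and 11.26, 11.66 and 11.83 in iPGC1afl/fl HFD and 11.22, 11.51 and 11.66 in iPGC1a-/- HFD (diet -0.44, SE 0.12, adjusted p = 0.0121), where CHOW replicate 4 held the highest value. *Snrpf*, for SmF, was at 11.13, 11.53 and 11.80 in CHOW and 10.77, 11.13 and 11.41 in iPGC1afl/fl HFD and 10.37, 10.93 and 11.14 in iPGC1a-/- HFD (diet -0.42, SE 0.14, adjusted p = 0.0342). The ranges of both genes overlapped between the diets.

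The U1 and U2 genes gave fewer calls. *Snrpa*, for the U1 snRNP A protein, which binds U1 RNA, read 12.46, 12.65 and 12.78 in CHOW and 12.25, 12.30 and 12.47 in iPGC1afl/fl HFD (log2 fold change -0.31, SE 0.07, adjusted p = 0.00269). The groups met only at the ends of their ranges. *Snrpc*, for the U1 snRNP C protein, had a like difference (-0.31, SE 0.11) but an adjusted p of 0.0555: its groups did not overlap, and iPGC1afl/fl HFD replicate 2 lay far below the other arrays at 10.90. Of 11 U2 genes 4 fell, *Snrpa1* (-0.39, SE 0.12, adjusted p = 0.0236) and *Snrpb2* (-0.25, adjusted p = 0.0332) for the A′ and B″ proteins of U2, *Sf3a3* (-0.32, SE 0.09, adjusted p = 0.0119) and *Sf3b3* (-0.40, SE 0.12, adjusted p = 0.0191). *Snrpa1* read 10.74, 11.04 and 11.40 in CHOW, 10.26, 10.75 and 10.90 in iPGC1afl/fl HFD and 10.42, 10.69 and 10.81 in iPGC1a-/- HFD. *Sf3a3* read 11.13, 11.28 and 11.68, 10.82, 11.05 and 11.15, and 10.79, 10.88 and 11.08 in the same order. *Sf3b3* read 11.83, 12.03 and 12.64, 11.53, 11.75 and 11.95, and 11.69, 11.77 and 11.88. In all of these the upper iPGC1afl/fl HFD arrays reached the lower CHOW arrays. Given next are the brightest gene and the gene with the smallest fall of each SF3 family, the latter picked for its small change. *Sf3b2* read 13.17, 13.23 and 13.36 in CHOW, 13.10, 13.17 and 13.30 in iPGC1afl/fl HFD and 13.01, 13.10 and 13.25 in iPGC1a-/- HFD (diet -0.07, adjusted p = 0.481). *Sf3b6* had medians of 10.89, 10.82 and 10.81 in the same order (-0.04, adjusted p = 0.75). *Sf3a2* read 11.75, 11.92 and 12.23, 11.65, 11.84 and 11.95, and 11.65, 11.82 and 12.14 (-0.12, adjusted p = 0.373). *Sf3b1*, for the large SF3B subunit that clamps the branch point, read 11.58 to 11.69 in CHOW and 11.41 to 11.53 in iPGC1afl/fl HFD, without overlap, but its log2 difference of -0.16 did not pass (SE 0.07, adjusted p = 0.0946). In all, 5 of the 64 genes had no overlap between both diets, 4 lower and 1 higher, where 5.30% and 5.11% of all gene names did so.

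Among *Prpf* genes, 2 of the 5 tri-snRNP members fell. *Prpf4*, a U4/U6 protein, read 8.60, 9.05 and 9.30 in CHOW, 8.31, 8.59 and 8.82 in iPGC1afl/fl HFD and 8.32, 8.59 and 8.79 in iPGC1a-/- HFD. The lower CHOW arrays overlapped HFD, and the log2 fold change was -0.44 (SE 0.11, adjusted p = 0.00842; exact permutation p = 0.0152). *Prpf31*, which joins the U4/U6 and U5 particles, differed by -0.35 (SE 0.10, adjusted p = 0.0134). *Prpf8*, the scaffold of the catalytic centre, read 13.43, 13.54 and 13.63 in CHOW, 13.17, 13.37 and 13.49 in iPGC1afl/fl HFD and 13.26, 13.46 and 13.62 in iPGC1a-/- HFD, all overlapping. Its log2 difference with diet was -0.18 (adjusted p = 0.116), that of *Prpf3* -0.13 (adjusted p = 0.298) and that of *Prpf6* 0.12 (adjusted p = 0.241). *Prpf40b* read 6.86, 7.03 and 7.37, 6.78, 6.94 and 7.32, and 6.75, 6.93 and 7.06 in the 3 groups (diet -0.09, adjusted p = 0.566). None of *Prpf18*, *Prpf19*, *Prpf38a*, *Prpf38b* and *Prpf4b* passed, with log2 differences from -0.15 to 0.06 (unadjusted p under 0.05 for 0 of these 5).

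Of 20 hnRNP genes 7 fell, and of 10 SR genes 2. *Hnrnpa1*, for the abundant splicing silencer hnRNP A1, read 11.50, 11.75 and 12.19 in CHOW and 10.96, 11.27 and 11.62 in iPGC1afl/fl HFD and 10.81, 11.23 and 11.36 in iPGC1a-/- HFD, with some overlap between the floxed groups (log2 fold change -0.48, SE 0.13, adjusted p = 0.00991). Its close relative *Hnrnpa3* read 13.85, 13.99 and 14.21 in CHOW, 13.44, 13.65 and 13.89 in iPGC1afl/fl HFD and 13.47, 13.63 and 13.83 in iPGC1a-/- HFD (diet -0.36, SE 0.09, adjusted p = 0.00752). *Hnrnpu*, a nuclear scaffold protein, read 11.30, 11.41 and 11.61 in CHOW and 10.96, 11.13 and 11.22 in iPGC1afl/fl HFD without overlap (-0.30, SE 0.08, adjusted p = 0.00706). *Hnrnpa0*, *Hnrnpl*, *Hnrnpm* and *Hnrnpr* also fell, by 0.35, 0.32, 0.30 and 0.46 on the log2 scale. Of the SR genes, which mostly promote exon inclusion, *Srsf3* (-0.31, SE 0.10, adjusted p = 0.0323) and *Srsf1* (-0.29, SE 0.09, adjusted p = 0.0258) fell, and 8 of the 10 did not pass. *Srsf3* read 10.20, 10.39 and 10.77 in CHOW, 9.85, 10.12 and 10.30 in iPGC1afl/fl HFD and 9.79, 10.06 and 10.23 in iPGC1a-/- HFD. *Srsf2*, a regulator of exon choice, read 12.18, 12.32 and 12.56, 11.92, 12.06 and 12.37, and 12.03, 12.18 and 12.28 (diet -0.23, adjusted p = 0.062). *Srsf5* had the highest difference of the family and read 11.42, 11.65 and 12.02, 11.76, 11.85 and 12.02, and 11.71, 11.85 and 11.96 (0.19, adjusted p = 0.135). The diets overlapped for each of these SR genes. *Hnrnpul2*, a DNA damage response factor, read 8.85, 9.05 and 9.55 in CHOW, 9.28, 9.39 and 9.45 in iPGC1afl/fl HFD and 9.33, 9.33 and 9.60 in iPGC1a-/- HFD, again with overlap. *Hnrnpul2*, *Srsf5* and *Srsf9* passed as higher under both 75th-percentile scalings, and *Hnrnpul2* also after quantile normalization and in the authors' table.

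**Figure D3:**
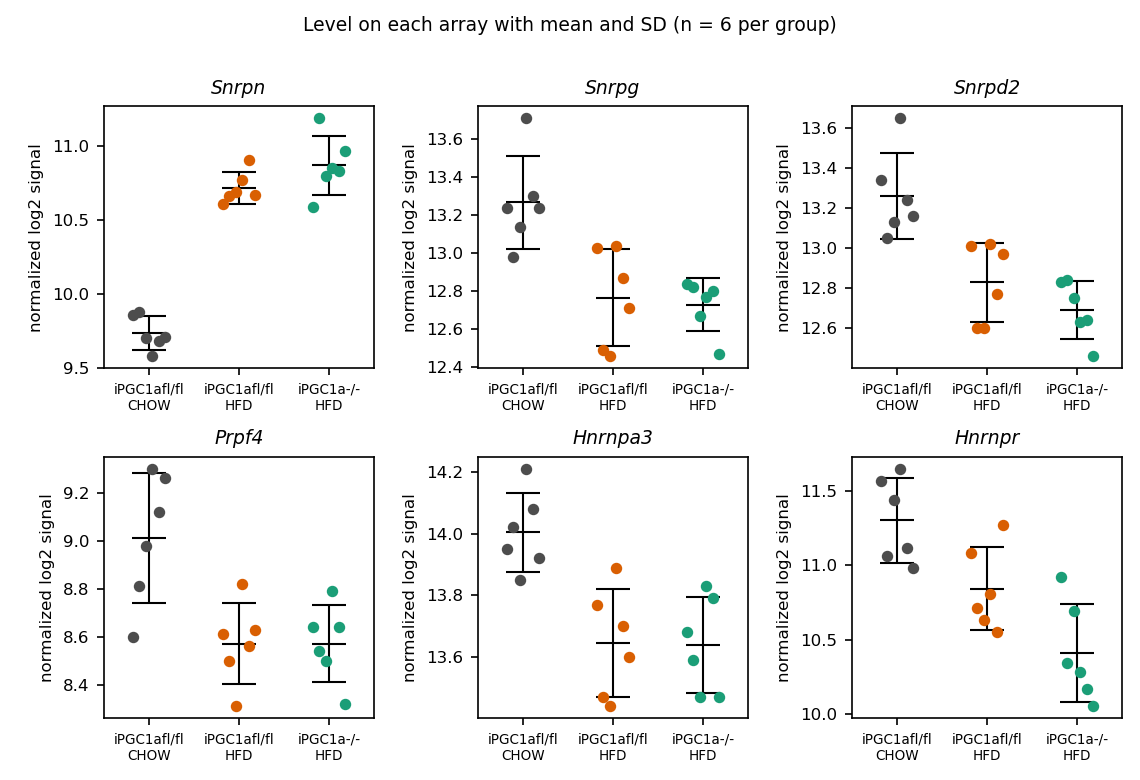
Normalized log2 signal of 6 splicing factor genes on each array (points) by group, with mean and SD (6 arrays per group). Snrpn is higher on every HFD array than on any CHOW array, Snrpd2 is lower on every HFD array, and Hnrnpr is lowest in iPGC1a-/- HFD.

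Averaged over the 64 genes as a deviation from each gene's mean, the arrays lay at 0.04, 0.09 and 0.28 (lowest, median, highest) in iPGC1afl/fl CHOW, at -0.18, -0.05 and 0.07 in iPGC1afl/fl HFD and at -0.15, -0.05 and -0.01 in iPGC1a-/- HFD. CHOW replicate 4 was highest, and iPGC1afl/fl HFD replicates 2 and 3 were lowest at -0.16 and -0.18, while iPGC1afl/fl HFD replicates 1 and 4, at 0.04 and 0.07, lay among the CHOW arrays. Within the 3 slides, each with 2 arrays of every group, the median diet difference of the 64 genes was -0.18, -0.21 and -0.19. With slide as a block 22 genes fell and 1 rose, where 13.8% of all gene names were lower and 10.2% higher.

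**Figure D4:**
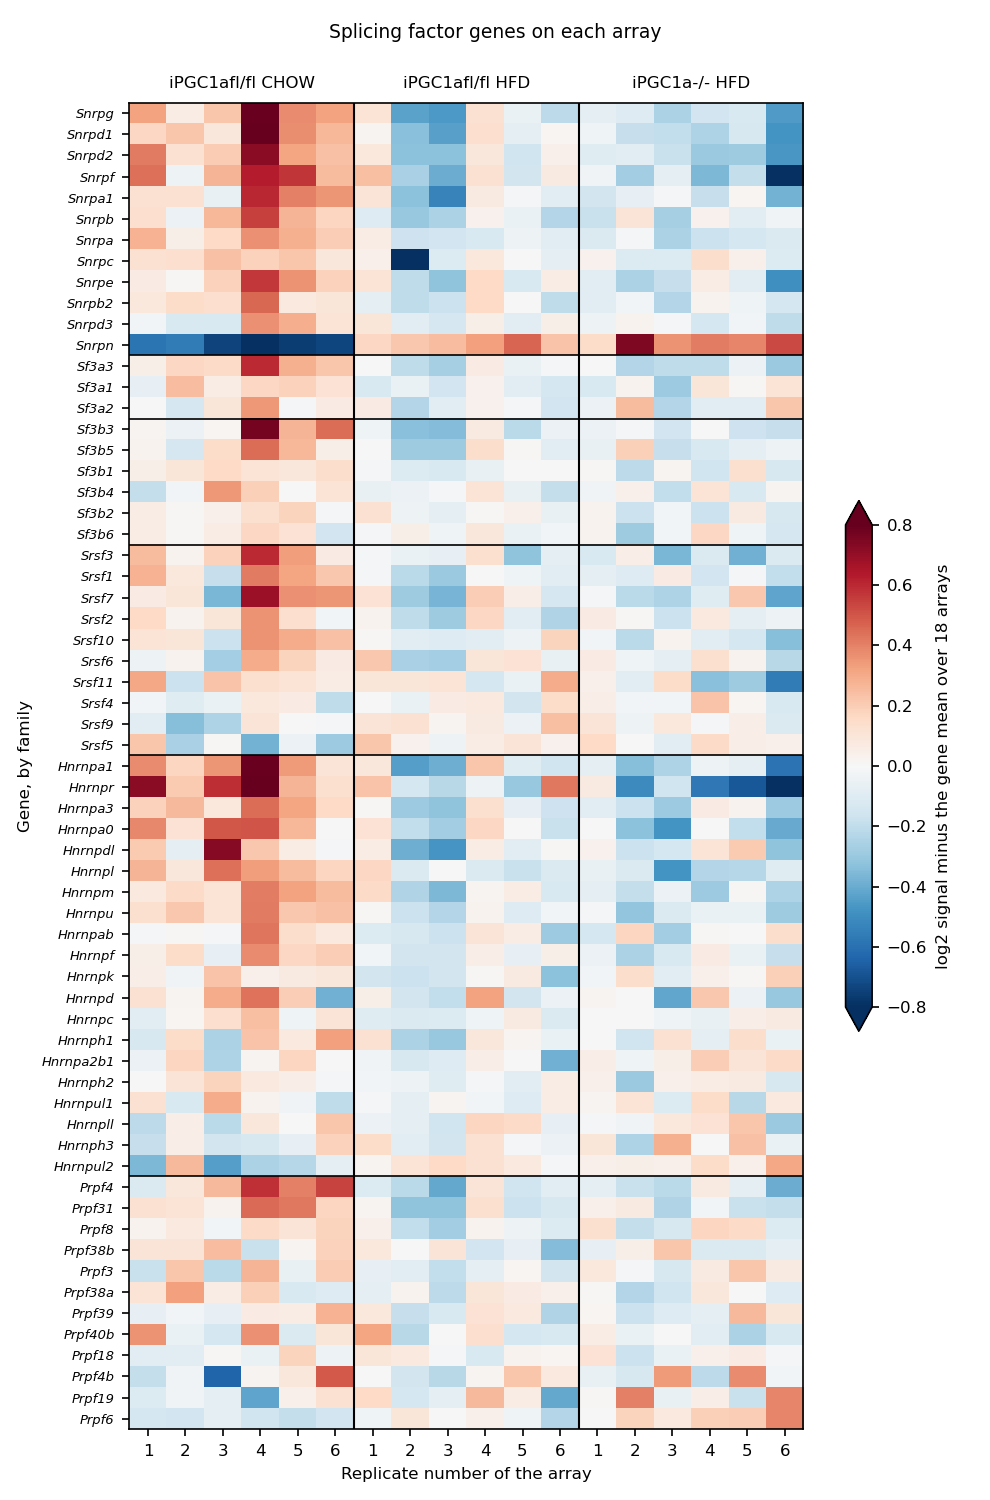
Each row is 1 of 63 splicing factor genes, grouped by family, and each column an array, numbered by replicate; colour is log2 signal minus the mean of the gene over the 18 arrays. CHOW replicate 4 is red for most falling genes, iPGC1afl/fl HFD replicates 2 and 3 are blue, and the Snrpn row runs the other way.

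Markers of dividing cells and of lymphocytes were lower on HFD as well. Of 15 proliferation markers, all well above background, 11 fell and 0 rose, with a median log2 fold change of -0.53. Their mean level was 9.70 to 10.46 in iPGC1afl/fl CHOW, 9.10 to 9.79 in iPGC1afl/fl HFD and 9.27 to 9.65 in iPGC1a-/- HFD, with the highest array again CHOW replicate 4 and the lowest iPGC1afl/fl HFD replicates 2 and 3 (9.14 and 9.10). All 13 T cell and intraepithelial lymphocyte markers fell (median -1.67), with mean levels of 8.61 to 10.06, 7.64 to 8.39 and 7.77 to 8.43 in the same order of groups. So did 7 of 7 plasma cell markers above background, 6 of 9 B cell markers and 8 of 9 goblet cell markers (medians -0.79, -0.85 and -0.68), while *Tnfrsf17*, *Fkbp11* and *Blk* of the plasma and B cell lists were not above background. The plasma cell mean was 9.32 to 9.93, 8.32 to 8.97 and 8.59 to 8.96, the B cell mean 6.92 to 8.32, 6.04 to 7.39 and 6.37 to 7.18, and the goblet cell mean 14.03 to 14.33, 13.21 to 14.04 and 13.34 to 13.92. Of 8 macrophage and dendritic cell markers above background 4 fell, with means of 7.88 to 8.20, 7.40 to 7.79 and 7.45 to 7.80, while *Adgre1*, *C1qa* and *Fcgr1* were not above background. Of 15 enterocyte markers 5 rose and 1 fell. The part of these markers in the differences of the splicing genes was not tested, and in such mixed samples fewer cells of a type and less RNA per cell cannot be told apart. As a sign of RNA length, the median log2 difference between an upstream and a downstream probe of the same transcript (3840 transcripts) was -2.08 to -1.94, -2.08 to -1.92 and -2.09 to -1.87, overlapping in all groups.

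**Figure D5:**
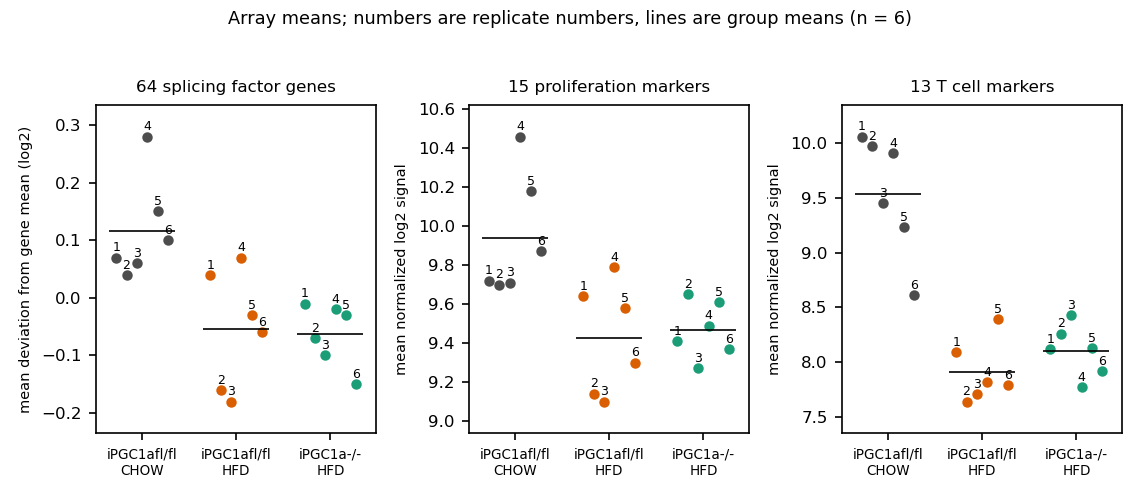
Mean over the 64 splicing factor genes (left, as deviation from each gene's mean), 15 proliferation markers (middle) and 13 T cell markers (right, both as normalized log2 signal) on each array, labelled by replicate number; lines are group means (6 arrays). CHOW replicate 4 is highest and iPGC1afl/fl HFD replicates 2 and 3 are lowest in the left and middle panels.

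To ask whether deletion of Pgc1α in the epithelium altered these genes under the same diet, the arrays labelled iPGC1a-/- HFD were compared with iPGC1afl/fl HFD. None of the 64 genes passed (0 in limma, smallest adjusted p = 0.419), where 0.227% of all gene names did (0.0650% as higher, 0.162% as lower), and 0 passed under each alternative or with any array left out. At an unadjusted p under 0.05 there were 5 of 64, against 9.30% of all gene names. The median log2 difference was 0.00, 33 genes had a higher and 31 a lower mean, and 0 genes had groups without overlap, which 0.966% of all gene names had. The 95% interval lay within a fold change of 1.5 in either direction for 63 of the 64 genes. Within the 3 slides the median of the genes was 0.06, 0.01 and -0.07, without a shared sign.

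The remaining gene was *Hnrnpr*, for hnRNP R, a binder of mRNA best known from motor neurons. Its printed probe read 10.98, 11.28 and 11.65 in iPGC1afl/fl CHOW, 10.55, 10.76 and 11.27 in iPGC1afl/fl HFD and 10.05, 10.31 and 10.92 in iPGC1a-/- HFD, each group partly overlapping the next. The genotype difference was -0.43 (SE 0.16, 95% interval -0.76 to -0.10, adjusted p = 0.419; exact permutation p = 0.039), and it did not pass. The other 6 *Hnrnpr* probes gave genotype differences between -0.18 and 0.05. The remaining 4 genes under an unadjusted p of 0.05 were *Prpf6* (10.60, 10.82 and 10.93 in iPGC1afl/fl HFD; 10.83, 11.01 and 11.22 in iPGC1a-/- HFD; log2 difference 0.19, adjusted p = 0.421), *Srsf11* (12.64, 12.88 and 13.08; 12.22, 12.60 and 12.93; -0.25, adjusted p = 0.505), *Hnrnpa2b1* (11.66, 11.98 and 12.10; 12.01, 12.12 and 12.24; 0.19, adjusted p = 0.505) and *Hnrnpk* (0.16, adjusted p = 0.518). For *Hnrnpa2b1* and *Hnrnpk* the second probe differed the other way, by -0.31 and -0.28. *Snrpn* was not separated by genotype (0.15, SE 0.09, 95% interval -0.04 to 0.34, adjusted p = 0.6).

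When diet and genotype both differed, iPGC1a-/- HFD against iPGC1afl/fl CHOW, 25 of the 64 genes were lower and 3 higher, 39.1% and 4.69%, where 20.0% and 16.8% of all gene names were (36.8% in all). At an unadjusted p under 0.05 there were 31, against 46.8% of all gene names, and in 12 lower and 2 higher genes the groups did not overlap, against 8.63% and 7.54%. This contrast shares its arrays with both others, so its values only stand beside theirs. The excess of lower genes was not particular to these families: of the 184 other splicing genes described below, 34.8% were lower and 5.43% higher. *Hnrnpr* was lower by 0.89 on the log2 scale (SE 0.16, adjusted p = 0.000234) with no overlap of arrays, and *Snrpf* by 0.65 (adjusted p = 0.0013). The other *Hnrnpr* probes differed by -0.53 to -0.05, and of these only the probes at -0.53 and -0.52 passed. *Snrpn* was higher by 1.14 (SE 0.09, adjusted p = 2.97e-08). *Prpf6*, a bridge of the tri-snRNP, read 10.64, 10.68 and 10.76 in iPGC1afl/fl CHOW and was higher by 0.32 in iPGC1a-/- HFD (SE 0.07, adjusted p = 0.00223), without overlap. The second *Prpf6* probe gave 0.05 (adjusted p = 0.782). The third higher gene was *Hnrnpul2* (0.29, adjusted p = 0.0255), with 0.04 on its second probe (adjusted p = 0.695).

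Several probes were tested for 43 of the 64 genes (136 probes in all). With diet, all probes passed for 6 of these genes, some for 13 and none for 24, and no gene had probes called in opposite directions. For the 17 of them whose brightest probe passed, all other probes had the same sign. With genotype no probe of the 136 passed, and all probes of a gene shared a sign for 18 of the 43.

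Other splicing genes, 184 tested of 201 listed by role, were compared in the same way. With diet, 29 fell (15.8%) and 5 rose (2.72%), where 14.2% of all gene names were lower and 10.4% higher. The mean was lower on HFD for 136 of the 184, against 10668 of 21542, and the median log2 fold change was -0.10. Under the 75th-percentile scalings 11 or 12 fell and 10 or 9 rose. Of all gene names, 11.1% or 9.42% were lower there and 13.8% or 13.3% higher. Without iPGC1afl/fl CHOW replicate 4, iPGC1afl/fl HFD replicate 2 or iPGC1afl/fl HFD replicate 3, 20, 19 and 16 passed in place of 34. Of all gene names, 10.9%, 10.7% and 10.2% were then lower and 8.31%, 8.37% and 8.62% higher. Of 10 Lsm genes 5 fell, *Lsm2*, *Lsm4*, *Lsm5*, *Lsm6* and *Lsm7* (log2 fold changes from -0.43 to -0.28). The other 5, among them *Lsm3* (-0.11, adjusted p = 0.409) and *Lsm8* (-0.15, adjusted p = 0.172), did not pass. Falls numbered 3 of 27 for other U1, U5, tri-snRNP and minor spliceosome proteins, 4 of 16 for 3′ splice site and U2-related factors and 3 of 33 for the Prp19 complex and active spliceosome. They numbered 2 of 26 for SR-related proteins and their kinases and 9 of 56 for other RNA-binding regulators. In a list that joins the exon junction complex with mRNA export and decay factors, 3 of 16 fell. The largest fall was that of *Celf2*, a regulator abundant in lymphocytes and muscle, from 7.46, 8.06 and 8.53 in CHOW to 6.38, 6.64 and 7.35 in iPGC1afl/fl HFD (log2 fold change -1.25, SE 0.18, adjusted p = 3.71e-05). The iPGC1a-/- HFD arrays read 6.47, 6.71 and 7.04, and neither HFD group overlapped CHOW. *Srpk3*, an SR protein kinase, was at 4.68, 5.69 and 6.70 in CHOW, 4.52, 4.90 and 5.63 in iPGC1afl/fl HFD and 4.59, 4.81 and 5.33 in iPGC1a-/- HFD (diet -0.75, adjusted p = 0.0335). *Srpk3* was dim, with a mean of 5.16 over all arrays. Its lowest HFD values lay near background, whose array medians were 17 to 23 before the log2 step. The filter needed only 1 group above background, so the size of the *Srpk3* fall is uncertain. *Ddx39*, an mRNA export helicase, was at 11.59, 11.73 and 12.11, 11.03, 11.30 and 11.52, and 11.02, 11.27 and 11.32 (-0.52, adjusted p = 0.000656). The groups overlapped for *Srpk3* and not for *Ddx39*. *Mbnl3*, of the muscleblind family, was at 8.95, 9.08 and 9.30, 8.35, 8.66 and 8.86, and 8.45, 8.79 and 8.97 (-0.48, adjusted p = 0.00223). *Magoh*, of the exon junction complex, was at 11.40, 11.49 and 11.78, 10.83, 11.07 and 11.38, and 10.82, 11.01 and 11.18 (-0.45, adjusted p = 0.00173). Both were lower on every iPGC1afl/fl HFD array than on any CHOW array.

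Among the 5 rises was *Esrp2*, an epithelial splicing regulator, at 8.36, 8.67 and 9.09 in CHOW, 9.02, 9.11 and 9.24 in iPGC1afl/fl HFD and 8.97, 9.10 and 9.32 in iPGC1a-/- HFD (diet 0.43, adjusted p = 0.00326). *Rbm15*, an RNA-binding partner of the m6A methyltransferase, was at 10.05, 10.78 and 11.45, 10.87, 11.30 and 11.77, and 11.21, 11.42 and 11.95 (0.57, adjusted p = 0.0341). *Cwc25*, a factor of the first catalytic step, was at 7.02, 7.39 and 8.06, 7.50, 7.93 and 8.34, and 7.77, 8.04 and 8.31 (0.45, adjusted p = 0.046). In these the diets overlapped. *Zmat5*, of the minor spliceosome, was at 7.63, 7.87 and 7.93, 8.00, 8.15 and 8.34, and 7.93, 8.06 and 8.58, without overlap between the floxed groups (0.33, adjusted p = 0.0292). *Zrsr1*, related to U2AF, had medians of 6.90, 7.21 and 7.51 with overlapping floxed groups (0.29, adjusted p = 0.0339). With genotype 0 of the 184 genes passed, where 0.227% of all gene names did. At an unadjusted p under 0.05 there were 11, against 9.30% of all gene names. When diet and genotype both differed, 64 of the 184 genes were lower and 10 higher (34.8% and 5.43%). The shares were 39.1% and 4.69% for the genes of the named families, and 20.0% and 16.8% for all gene names.

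Promoter sequences (300 bases from 250 before the start site, RefSeq, GRCm38.p6) were matched for 56 of the 64 genes, 76 promoters in all. Each motif was searched on both strands. CCGGAAG, read by ETS factors, was in 32.9% of these promoters and 8.86% of all 32851, or 14.8% of those of genes tested here, and GGGCGGG, the GC box, in 52.6%, 25.6% and 40.5%. CCAAT was in 47.4%, 37.4% and 37.5%, and CACGTG, the E-box, in 14.5%, 7.15% and 9.18%. The YY1 and NRF1 motifs were in 2 and 1 of the 76 promoters (2.63% and 1.32%, against 0.852% and 0.971% of all and 1.65% and 1.71% of those of genes tested). By gene, CCGGAAG was in 4 of the 19 matched genes that fell with diet and in 16 of the 36 that did not pass, and GGGCGGG in 6 and 25. These are 21.1% and 44.4% for CCGGAAG and 31.6% and 69.4% for GGGCGGG, against 17.1% and 45.5% of all tested genes with a promoter. TGACGTCA, the cyclic AMP response element, was in 2 of 76 (2.63%, against 1.79% of all and 2.75% of those of genes tested), those of *Snrpa* and *Snrpg*. The stretch before the start of *Snrpg*, chr6:86371290-86371539 on the plus strand, is shown because *Snrpg* had the lowest log2 fold change with diet and holds both CCGGAAG and TGACGTCA (capitals).
Snrpg: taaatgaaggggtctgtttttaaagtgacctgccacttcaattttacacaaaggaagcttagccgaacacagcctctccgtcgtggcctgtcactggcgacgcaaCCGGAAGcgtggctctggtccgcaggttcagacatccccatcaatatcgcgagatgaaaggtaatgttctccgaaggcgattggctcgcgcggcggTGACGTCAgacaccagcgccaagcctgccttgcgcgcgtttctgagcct
The motifs begin at -145 and -49 relative to the start site. A match of letters is a description of the sequence, and binding was not measured.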

How the data were processed

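RNA of 18 ileum cell samples was hybridised to one-colour Agilent arrays (SurePrint G3 Mouse GE v2). The authors deposited, per array, the intensity values of each spot from Feature Extraction 10.10.1.1 (per the file headers), not normalized between arrays, and a table of log2 values that they had filtered, corrected for washing bath and labelling serial, and normalized by qsmooth. The batch of each array is not given in the sources used here, so that correction was not repeated.

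Groups came from the sample labels. From the scanner files, control and outlier spots were left out, spots of a probe averaged, and a probe was kept if 5 or more arrays of any 1 group flagged it as well above background (32726 of 56605). The log2 of the median signal was then normalized in R 4.3.3 by smooth quantile normalization, written after qsmooth with a window of 0.05. Differences were tested with limma 3.58.1 (lmFit, eBayes; one model of 3 groups, no covariate) with Benjamini-Hochberg adjustment over all 32726 probes, and a gene was its brightest probe (highest mean over the 18 arrays). All adjusted p-values are from this fit unless another setting is named. Single genes were also compared by two-sided exact permutation over the 924 divisions of 12 arrays. The procedure was tested on simulated data. Precision is limited by the number of arrays: the median SE of a log2 fold change over the 64 genes was 0.09. Coordinates of probes are those of the array files (mm9), and exon or UTR status was not determined here. All 64 symbols matched the RefSeq table of GRCm38.p6.

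The separate values of 1 of the 64 genes, which stays in all counts, and 1 probe sequence are not reported here. The families and all gene lists were chosen with earlier results of these data known. Values of every group are given for the 12 genes of a contrast with the largest absolute log2 fold change among those that passed, for the brightest gene, largest rise and largest fall of each family, for *Ppargc1a*, and for the 5 largest rises and 5 largest falls that passed among other splicing genes; any of the 64 genes may be named beside these. The 16 cell type lists comprised enterocyte, crypt, proliferation, Paneth, goblet, enteroendocrine, tuft, T cell, B cell, plasma cell, macrophage, fibroblast, smooth muscle, endothelium, red blood cell and neutrophil markers. Those not given above had 0 to 2 genes called with diet, and 0 genes of any list passed with genotype.

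Alternatives were the background-subtracted or median signal scaled to the 75th percentile, normexp (offset 50), quantile normalization, the authors' table, no filter and a strict filter, slide or replicate number as a block, only the groups compared, trended and robust variance, averaged probes, a fold change above 1.5, and each array left out. Tables and plots were made with pandas 2.3.3 and matplotlib 3.10.9 in Python 3.11.15.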

Additional observations from a re-analysis of the deposited data

Results flagged for a closer look

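Among the 64 splicing factor genes in 3 groups (192 groups of 6 arrays), 7 single arrays lay far from the other arrays of their group by Dixon's test at the 95% level; chance alone gives such a gap in about 1 of 20 groups. In iPGC1afl/fl CHOW, replicate 4 was high for *Hnrnpab* (13.18, others 12.74 to 12.89), *Snrpb2* (10.81, others 10.43 to 10.50) and *Snrpd1* (12.53, others 11.79 to 12.07), replicate 3 for *Hnrnpdl* (12.23, others 11.43 to 11.72) and replicate 5 for *Prpf18* (9.39, others 9.13 to 9.22). In iPGC1afl/fl HFD, replicate 2 was low for *Snrpc* (10.90, others 11.61 to 11.80) and replicate 6 high for *Srsf10* (9.23, others 8.95 to 9.06).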

How the results depend on the processing

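With diet, 23 of the 64 splicing factor genes passed in the main setting. The number was 10 and 11 when the background-subtracted or the median signal was scaled to the 75th percentile, 1 with a fold change above 1.5 required, and 13 to 28 with an array left out. With an array left out, 10.2% to 16.4% of all gene names were lower and 8.31% to 11.2% higher. The median of the genes was -0.22 to -0.16 with an array left out. With genotype, 0 passed with any array left out, and the median was -0.03 to 0.04. With diet and genotype both different, 28 passed, 3 with a fold change above 1.5 and 22 to 29 with an array left out, and the median was -0.20 to -0.14. Of the other splicing genes, 34 passed with diet, 21 under each 75th-percentile scaling, 2 with a fold change above 1.5 and 16 to 42 with an array left out, and 0 with genotype. All other processing alternatives kept these counts within 1.5 times. Averaging all probes of a gene turned the genotype difference of *Hnrnpa2b1* and *Hnrnpk* to -0.06 in each. None of the other genes recomputed, those that passed with diet and *Hnrnpr*, *Prpf6* and *Srsf11* with genotype, changed sign. The cause of these shifts was not tested.

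The deviations of samples that share a replicate number correlated at -0.217 to 0.346, positive in most pairs and negative in the rest. Some samples matched their own number best and others did not. Whether equal numbers mark a pairing was not settled by this, and the main fit treated the samples as unpaired. With the replicate block, 27 of the 64 genes passed with diet, 0 with genotype and 30 where both differed. With diet, that block called 40.6% of the 64 genes lower and 1.56% higher, against 16.1% and 11.4% of all gene names.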
